A study of Mus musculus with 11 samples.

Results

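Ribosome biogenesis genes encode the machinery that transcribes ribosomal RNA and builds ribosomal subunits from it. A list of 54 such genes, from RNA polymerase I subunits to factors of both subunits, was described in mouse CD8+ T cells. A gene was a member if it had a probe set annotated with its symbol alone, and the probe set with the highest mean over the arrays stood for it. By this rule 53 of the 54 genes were members, of 18193 genes measured, and Npm3, a nucleolar chaperone, was not analysed here. All 53 lay above the filter on low values, a log2 value of 1.54 on at least 2 arrays, and were tested among 14795 genes.

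The study compared effector T cells grown from 2 starting populations. Every group was of Pmel-1 transgenic origin: the cells carry 1 T cell receptor, specific for a gp100 peptide of melanocytes and melanoma. CD8+ cells enriched as naive (CD44-) or central memory (CD44+) were expanded on plate-bound antibodies to CD3 and CD28. They then met allogeneic feeder cells carrying hgp100(25-33) peptide and grew for 2 weeks in all in RPMI with 10 cetus units of IL2. RNA was extracted either after 4 h of renewed CD3/CD28 stimulation or without it, which gave 3 arrays of memory-derived unstimulated, 3 of memory-derived stimulated, 2 of naive-derived unstimulated and 3 of naive-derived stimulated cells. Arrays are numbered by experiment, 1 to 3, and the naive-derived unstimulated cells of experiment 3 were not analysed here. Ages of the mice are not given in the sources used here.

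RNA polymerase I transcribes the ribosomal DNA repeats in the nucleolus into a long precursor. Small nucleolar RNA-protein complexes modify this precursor, the small subunit processome folds and cuts its first part, and further factors mature the 40S and 60S subunits before and after export. T cells that leave rest and prepare to divide enlarge their nucleoli and make more ribosomes, and the transcription factor MYC is known to activate many genes of this kind.

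Markers of CD8 T cells bore out the labels. All 7 with a probe set, among them Cd3d, Cd3e, Cd8a and Cd8b1, lay above the filter level on all 11 arrays. Of the markers of other cells, Cd4, the B cell genes Cd79a and Ms4a1, Siglech of plasmacytoid dendritic cells and Alas2 of erythroid cells lay below it on all, and Zbtb7b, Cd22, Csf1r, Adgre1, Itgax and Batf3 above it on all. The summed linear values of the 7 CD8 T cell markers were 3084 to 3110 without and 2048 to 2137 with stimulation on memory-derived arrays, and 3177 to 3268 without and 2593 to 2873 with stimulation on naive-derived arrays. Markers of CD4, regulatory T and NK cells with a probe set were Cd4, Foxp3, Ncr1 and Zbtb7b. Trdc of gamma-delta T cells and Klrb1c of NK cells had none. The sums of the measured ones were 15.6 to 16.9, 13.8 to 16.9, 14.2 to 14.3 and 13.1 to 15.1 in the same order. Summed B cell markers were 13.6 to 15.6, 14.0 to 14.8, 17.2 to 17.3 and 15.4 to 16.7. Summed myeloid markers were 38.8 to 45.8, 40.2 to 41.8, 32.6 to 33.9 and 26.7 to 31.8. Summed dendritic cell markers, which include Itgax, were 82.9 to 114, 74.5 to 90.7, 67.5 to 70.4 and 52.6 to 73.7. RNA quality was read from the actin and Gapdh control probe sets. For actin the 3' signal exceeded the 5' signal by a log10 difference of 0.263 to 0.351, 0.431 to 0.520, 0.462 to 0.478 and 0.581 to 0.782 in that order of groups. For Gapdh the 3' minus 5' difference was -0.454 to -0.388, -0.431 to -0.417, -0.496 to -0.426 and -0.548 to -0.444. The part of these measures and of the marker levels in the results below was not tested. The authors' values had been quantile normalised, so a difference here is relative to the other RNA on an array and does not give the amount of RNA per cell. In bulk RNA, fewer cells of a kind and less RNA per cell cannot be told apart.

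Ribosome biogenesis genes were low on the 3 memory-derived unstimulated arrays and high on the arrays of all other groups. For each member, values were centred on the mean of the memory-derived unstimulated arrays and the median over the 53 members was taken. This median was 0.13, 0.47 and -0.56 (log2) on the memory-derived unstimulated arrays, 1.12, 1.19 and 1.21 on the memory-derived stimulated arrays, 1.11 and 1.18 on the naive-derived unstimulated arrays and 1.22, 1.21 and 1.41 on the naive-derived stimulated arrays. The 3 memory-derived unstimulated arrays were the lowest and also the most spread. In 50 of the 53 members all 3 of them lay below all 8 other arrays, an order that 14% of all genes tested showed. The exceptions were Polr1d and Ubtf of the RNA polymerase I machinery and Wdr75 of the small subunit processome.

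**Figure D1:**
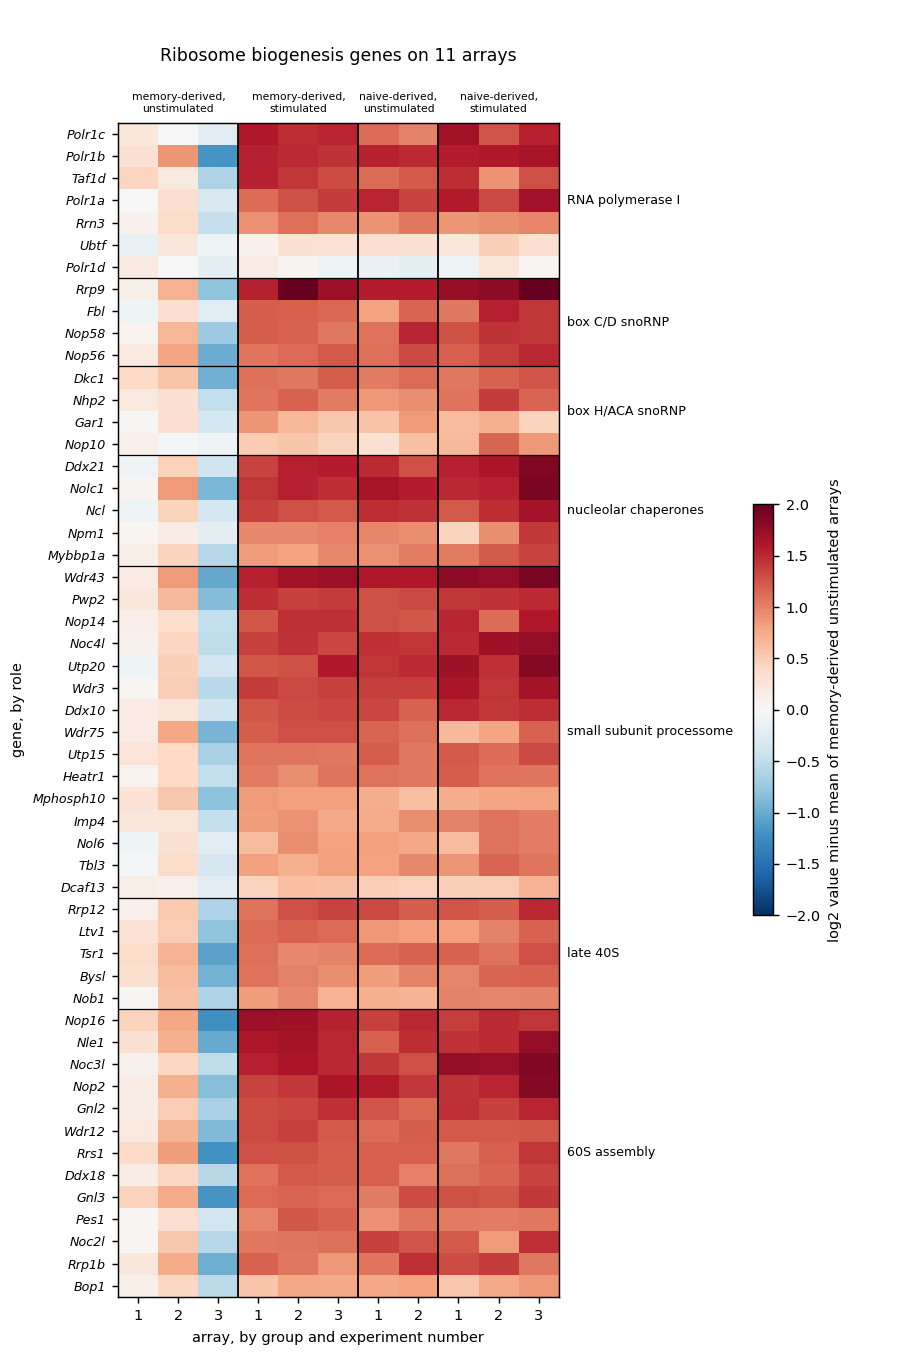
Heat map of the 53 genes with a probe set (rows, by role) on the 11 arrays (columns, by group and experiment). Colour gives the log2 value minus the gene's mean on the memory-derived unstimulated arrays, from -2 to 2. The first 3 columns are pale or blue and the other 8 red for nearly all genes, and Polr1d and Ubtf stay pale throughout.

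Memory-derived unstimulated array 3 stood apart from the other arrays of its group. It was the lowest of the 3 in 52 of 53 members, Ubtf being the exception, against 35.5% of all genes tested, and the lowest of all 11 arrays in 51. Array 2 was the highest of the 3 in 48 members. For these last 2 orders the share of all genes was not counted. The median standard deviation (SD) of the members was 0.522 among memory-derived unstimulated arrays, where all genes had 0.206. It was 0.0767 among memory-derived stimulated arrays, where all genes had 0.145. Among naive-derived arrays it was 0.0757 without stimulation and 0.141 with it, where all genes had 0.127 and 0.190. The members thus varied more than all genes in the first group and less in the others. Results that rest on array 3 are given with and without it.

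The first comparison asked how the final stimulation changed these genes in memory-derived cells. Of the 53 members, 51 rose and 0 fell, where 14.3% of all genes tested rose and 17.3% fell (limma over all genes, adjusted p below 0.05). At an unadjusted p below 0.05 the counts were also 51 and 0, where 19.1% of all genes tested were higher and 21.9% lower. The median difference was 1.14 on the log2 scale, against 0.0025 for all genes tested. At least 2-fold differences were seen in 39 members and, in either direction, in 1337 of the 14795 genes tested. Differences ran from 0.04 for Polr1d to 1.76 for Rrp9. Groups did not overlap in 51 of 53 members, and 21.9% of all genes tested were ordered in this way. Within experiments 1, 2 and 3 the median difference was 0.955, 0.675 and 1.84, and 52, 53 and 53 members were higher on the stimulated array. Of all genes tested, 48.7%, 52.3% and 48.1% were higher there.

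Without memory-derived unstimulated array 3 the median difference was 0.85, 48 members rose, and Bop1, Nop10 and Rrp1b did not pass. Fewer members then reached 2-fold, since the median lay below 1 log2 unit. The largest difference was 1.43 for Polr1c, and Rrp9, Wdr43 and Nle1 were at 1.36, 1.14 and 1.09. For 15 members the difference changed by over 1.5 times without this array: Bop1, Bysl, Dkc1, Gnl3, Ltv1, Mphosph10, Nob1, Nop16, Nop56, Polr1b, Rrp1b, Rrs1, Tsr1, Wdr12 and Wdr75. Leaving out any of the 3 memory-derived stimulated arrays left 41 members higher, and leaving out any other array left 47 to 50. Of the 51 members, 33 were called under every alternative tried.

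RefSeq promoters (assembly GRCm38.p6, 250 bases before to 50 after the gene start) were at hand for 44 of the 53 members, including Polr1d and Ubtf, which did not pass in memory-derived cells. The letters CACGTG, which read the same on both strands and are the E-box that MYC with its partner MAX is known to bind, were in 10 of the 44 promoters (22.7%), in 10.8% of the promoters of 11870 genes tested and in 8.09% of all 27025 promoters. The letters CGGAAG or, on the other strand, CTTCCG, found in sites of ETS factors, were in 24 of the 44 (54.5%, against 30.6% and 18.8%). The GC box GGGCGG or CCGCCC, known from sites of SP1, was in 33 (75%, against 62.2% and 38.2%). The ETS and GC box motifs share the letters CGG and can overlap. A match is a description of the sequence, not a binding site.

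The windows around CACGTG are shown for the members whose values are given by array below, to place the letters relative to the gene start. Capitals mark the E-box, windows are at most 30 bases, 5' to 3' on the gene's strand. Those of Rrn3 lie at chr16:13780472-13780501 and chr16:13780639-13780668 (plus strand), with the first capital 215 and 48 bases before the start. The Nop2 window lies at chr6:125131811-125131840 (plus), 60 bases before the start. In the other 5 windows the E-box lies after the start: Pes1 at chr11:3963965-3963994 (plus), Wdr43 at chr17:71616220-71616249 (plus), Nle1 at chr11:82908355-82908384 (minus), Ltv1 at chr10:13193092-13193121 (minus) and Utp20 at chr10:88826765-88826789 (minus), where the capitals begin at base 3, 18, 24, 29 and 38 in turn. The Pes1 window itself begins before the start. Imp4, Mybbp1a and Tsr1 also held the E-box.
Rrn3, upstream: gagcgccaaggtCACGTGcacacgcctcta
Rrn3, near the start: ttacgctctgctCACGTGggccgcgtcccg
Nop2: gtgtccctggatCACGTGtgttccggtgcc
Pes1: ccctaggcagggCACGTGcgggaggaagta
Wdr43: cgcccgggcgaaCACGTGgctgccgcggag
Nle1: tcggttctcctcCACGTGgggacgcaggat
Ltv1: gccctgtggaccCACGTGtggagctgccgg
Utp20: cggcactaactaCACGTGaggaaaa

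Of the 7 members of the RNA polymerase I machinery, 5 rose after stimulation in memory-derived cells and 2, Polr1d and Ubtf, did not pass. Polr1a, the largest subunit, had log2 values of 3.77, 4.09 and 3.44 on the memory-derived unstimulated arrays of experiments 1, 2 and 3 and 4.89, 5.05 and 5.17 on the stimulated arrays. On naive-derived arrays it had 5.29 and 5.11 without stimulation (experiments 1 and 2) and 5.36, 5.08 and 5.44 with it. The memory-derived unstimulated arrays were the low ones and the other groups lay close together. The rise in memory-derived cells was 1.27 on the log2 scale (standard error, SE, 0.175, adjusted p = 0.000557), and 0.66 with the mean of the gene's probe sets. That mean includes probe sets below the filter level on every array, while the further ones above it rose by 1.07 and 1.00. Polr1b, the second largest subunit, had 5.26, 5.83 and 3.78 and then 6.49, 6.45 and 6.40 in memory-derived cells, and 6.50 and 6.44 and then 6.53, 6.56 and 6.61 in naive-derived cells. Its low group was wide, with array 3 far below the others, and all remaining arrays lay near one another. It rose by 1.49 (SE 0.386, adjusted p = 0.0132), and by 0.90 without array 3.

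Polr1c and Polr1d form a pair that RNA polymerases I and III share. Polr1c had 6.67, 6.46 and 6.24 on memory-derived unstimulated and 8.05, 7.94 and 7.99 on stimulated arrays. On naive-derived arrays it had 7.57 and 7.45 without and 8.14, 7.71 and 8.02 with stimulation, so the naive-derived unstimulated arrays lay between the memory-derived groups. It rose by 1.53 in memory-derived cells (SE 0.149, adjusted p = 0.000103). Polr1d had 8.99, 8.80 and 8.63 without and 8.96, 8.86 and 8.70 with stimulation on the memory-derived arrays and 8.67 and 8.62 without and 8.71, 9.05 and 8.85 with it on the naive-derived arrays. Its groups overlapped, and the difference in memory-derived cells was 0.04 (SE 0.141, adjusted p = 0.882). Its sign turned without memory-derived unstimulated array 3 and without memory-derived stimulated array 1, to -0.05 and -0.02. Polr1d had 4 probe sets, and a second one was higher by 0.56 after stimulation (adjusted p = 0.0264). This p was adjusted over every single-symbol probe set of the genes tested.

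Rrn3, which makes the polymerase competent to initiate, had 4.55, 4.82 and 3.999 on memory-derived unstimulated and 5.36, 5.56 and 5.42 on stimulated arrays. Its naive-derived values were 5.36 and 5.51 without and 5.34, 5.39 and 5.44 with stimulation, within the range of the memory-derived stimulated arrays or just below it. The rise was 0.99 (SE 0.183, adjusted p = 0.00243). Taf1d, a subunit of the promoter selectivity factor SL1, had 5.42, 5.18 and 4.38 without and 6.53, 6.42 and 6.30 with stimulation in memory-derived cells and 6.11 and 6.21 without and 6.47, 5.89 and 6.28 with it in naive-derived cells. The memory-derived unstimulated arrays were again below all others, and the gene rose by 1.42 (SE 0.243, adjusted p = 0.00163), or by 0.79 with the mean of its probe sets. Ubtf, the upstream binding factor that keeps ribosomal DNA open, had 5.56, 5.93 and 5.61 without and 5.79, 6.01 and 5.98 with stimulation on memory-derived arrays and 6.03 and 6.001 without and 5.92, 6.17 and 6.03 with it on naive-derived arrays. Array 2 of the memory-derived unstimulated cells lay among the stimulated arrays. Its difference of 0.22 (SE 0.137, adjusted p = 0.251) did not pass.

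**Figure D2:**
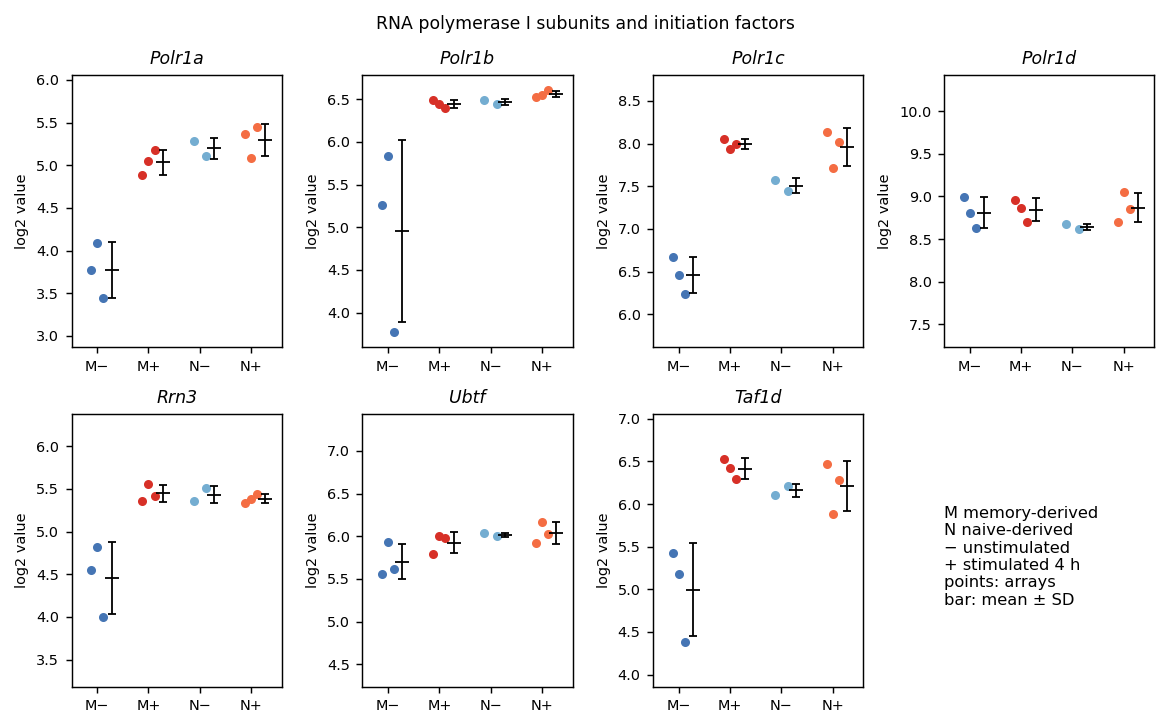
Log2 values of the 7 RNA polymerase I subunits and initiation factors on each array, with a bar for the mean ± SD of each group (M, memory-derived; N, naive-derived; minus and plus, without and with the 4 h stimulation). In 5 genes the memory-derived unstimulated arrays lie below all others, while the groups of Polr1d and Ubtf overlap.

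The box C/D and box H/ACA small nucleolar ribonucleoproteins guide 2'-O-methylation and pseudouridylation of ribosomal RNA, and all 4 members of each kind rose. Fbl, the methyltransferase fibrillarin, had 8.01, 8.43 and 7.85 on memory-derived unstimulated and 9.31, 9.29 and 9.25 on stimulated arrays. Its naive-derived arrays had 8.90 and 9.26 without and 9.16, 9.66 and 9.53 with stimulation. The memory-derived stimulated arrays were tightly grouped and well above the unstimulated ones, and the rise was 1.19 (SE 0.183, adjusted p = 0.000942). Nop56, a core protein of the same particle, had 7.70, 8.29 and 6.51 without and 8.57, 8.63 and 8.73 with stimulation in memory-derived cells and 8.61 and 8.82 without and 8.70, 8.89 and 9.01 with it in naive-derived cells. Array 3 was far below arrays 1 and 2 of its group. The rise of 1.14 (SE 0.341, adjusted p = 0.0255) was 0.65 without it. Rrp9, a protein specific to the U3 particle that starts precursor cleavage, showed the largest difference of the 53, with 5.02, 5.59 and 4.09 before and 6.44, 6.94 and 6.61 after stimulation. It rose by 1.76 (SE 0.307, adjusted p = 0.00179), with no overlap, and by 1.36 without array 3, where Polr1c rose more. Rrp9 had 6.47 and 6.47 without and 6.65, 6.70 and 7.06 with stimulation in naive-derived cells. Nop58, the remaining core protein, rose by 1.14 (SE 0.277).

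Among the box H/ACA proteins the median difference was 0.90, the smallest of the 7 roles. Dkc1, the pseudouridine synthase dyskerin, had 7.13, 7.29 and 5.77 on memory-derived unstimulated and 7.83, 7.78 and 7.94 on stimulated arrays. Naive-derived arrays had 7.76 and 7.85 without and 7.79, 7.91 and 7.99 with stimulation, all close to the memory-derived stimulated ones. It rose by 1.12 (SE 0.312, adjusted p = 0.0185), and by 0.64 without array 3. Nop10, the small protein that binds dyskerin, was the least spread member among memory-derived unstimulated arrays, with 8.23, 8.10 and 8.05 without and 8.63, 8.68 and 8.58 with stimulation in memory-derived cells and 8.43 and 8.72 without and 8.78, 9.29 and 9.001 with it in naive-derived cells. Its highest values were those of naive-derived stimulated arrays. The rise in memory-derived cells was 0.50 (SE 0.148, adjusted p = 0.0240), the smallest that passed, and it did not pass without array 3 (0.46, adjusted p = 0.0688). Gar1 and Nhp2, which complete the particle, rose by 0.70 and 1.10.

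All 5 measured nucleolar chaperones and coordinators rose. Ncl, nucleolin, which binds nascent precursor, had 10.05, 10.60 and 9.80 on memory-derived unstimulated and 11.52, 11.43 and 11.39 on stimulated arrays. Naive-derived arrays had 11.62 and 11.60 without and 11.39, 11.64 and 11.81 with stimulation, a group that spread to both sides of the unstimulated values. The rise in memory-derived cells was 1.30 (SE 0.192, adjusted p = 0.000763). Npm1, the histone and ribosome chaperone nucleophosmin, had 11.28, 11.40 and 11.05 without and 12.20, 12.20 and 12.25 with stimulation in memory-derived cells, and 12.22 and 12.18 without and 11.68, 12.18 and 12.66 with it in naive-derived cells. The naive-derived stimulated arrays were more spread than for any other member, yet stayed above every memory-derived unstimulated array. It rose by 0.98 (SE 0.208, adjusted p = 0.00500). Ddx21, an RNA helicase that links RNA polymerase I transcription and processing, had 6.36, 6.91 and 6.05 without and 7.80, 7.99 and 8.02 with stimulation in memory-derived cells and 7.94 and 7.74 without and 7.97, 8.07 and 8.31 with it in naive-derived cells. The 3 lowest arrays were again the memory-derived unstimulated ones. The rise was 1.50 (SE 0.200, adjusted p = 0.000467), while a second Ddx21 probe set differed by 0.53 (adjusted p = 0.157). Nolc1, a chaperone of small nucleolar particles, had 6.74, 7.55 and 5.78 without and 8.12, 8.22 and 8.17 with stimulation in memory-derived cells and 8.34 and 8.27 without and 8.19, 8.23 and 8.57 with it in naive-derived cells, and rose by 1.48. Mybbp1a, a nucleolar partner of transcription factors, rose by 0.88.

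All 15 members of the small subunit processome, the large particle that assembles on the start of the precursor, rose by 0.55 (Dcaf13) to 1.65 (Wdr43), with a median of 1.26. Heatr1, whose yeast counterpart also promotes RNA polymerase I transcription, had 5.94, 6.26 and 5.40 on memory-derived unstimulated and 6.90, 6.80 and 6.95 on stimulated arrays. Naive-derived arrays had 6.96 and 6.91 without and 7.08, 6.95 and 6.94 with stimulation, with little spread. The rise was 1.02 (SE 0.187, adjusted p = 0.00234). Wdr43, a WD-repeat protein whose E-box window is shown above, had 6.45, 7.14 and 5.26 without and 7.84, 7.97 and 8.002 with stimulation in memory-derived cells and 7.89 and 7.89 without and 8.07, 8.04 and 8.18 with it in naive-derived cells. The naive-derived unstimulated arrays were equal to 2 decimals and level with the memory-derived stimulated ones. It rose by 1.65 (SE 0.350, adjusted p = 0.00495). Utp20, a large scaffold protein, had 4.43, 5.01 and 4.14 without and 5.78, 5.80 and 6.14 with stimulation in memory-derived cells and 5.96 and 6.02 without and 6.22, 5.98 and 6.36 with it in naive-derived cells. Its groups were split in the same way, and it rose by 1.38 (SE 0.208, adjusted p = 0.000854). Ddx10, an RNA helicase, had 6.38, 6.44 and 5.81 without and 7.45, 7.52 and 7.55 with stimulation in memory-derived cells and 7.55 and 7.39 without and 7.71, 7.62 and 7.68 with it in naive-derived cells, and rose by 1.30 (SE 0.162).

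The 5 late 40S factors, which take part in export and the final cut of 18S ribosomal RNA, rose by 0.83 to 1.24. Bysl, which binds 40S precursors on their way out of the nucleus, had 5.94, 6.25 and 4.68 on memory-derived unstimulated and 6.70, 6.63 and 6.54 on stimulated arrays. Naive-derived arrays had 6.46 and 6.62 without and 6.59, 6.78 and 6.80 with stimulation. Array 3 was far below arrays 1 and 2, and array 2 came closest to the stimulated arrays. The rise of 1.01 (SE 0.312, adjusted p = 0.0307) was 0.54 without array 3. Nob1, the endonuclease that makes the 3' end of 18S ribosomal RNA, had 5.24, 5.81 and 4.60 without and 6.05, 6.17 and 5.91 with stimulation in memory-derived cells and 5.93 and 5.89 without and 6.21, 6.19 and 6.20 with it in naive-derived cells. Its unstimulated and stimulated memory-derived arrays nearly met. It rose by 0.83 (SE 0.239, adjusted p = 0.0217), and by 0.52 without array 3. Ltv1, a factor released before the final steps, had 6.62, 6.82 and 5.52 without and 7.43, 7.49 and 7.45 with stimulation in memory-derived cells and 7.19 and 7.14 without and 7.14, 7.31 and 7.49 with it in naive-derived cells. The naive-derived unstimulated arrays were below all memory-derived stimulated ones. It rose by 1.14 (SE 0.272, adjusted p = 0.00903), and by 0.74 without array 3. Rrp12 and Tsr1 rose by 1.24 and 1.02.

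All 13 members of 60S assembly rose, by 0.70 (Bop1) to 1.65 (Nop16). Pes1 and Bop1 form, with Wdr12, a complex needed to process the precursor of 28S and 5.8S ribosomal RNA. Pes1 had 5.39, 5.67 and 4.97 on memory-derived unstimulated and 6.32, 6.59 and 6.53 on stimulated arrays. Naive-derived arrays had 6.26 and 6.42 without and 6.38, 6.37 and 6.40 with stimulation, within the range of the memory-derived stimulated ones or just below it. The rise was 1.14 (SE 0.168, adjusted p = 0.000768), and 0.74 with the mean of its probe sets. Bop1 had 5.55, 5.85 and 4.91 without and 5.99, 6.21 and 6.19 with stimulation in memory-derived cells and 6.21 and 6.24 without and 5.98, 6.19 and 6.31 with it in naive-derived cells. Its memory-derived groups came closer than those of most members. It rose by 0.70 (SE 0.209, adjusted p = 0.0262), did not pass without array 3 (0.43, adjusted p = 0.0598), and had a second probe set with a difference of -0.03. Wdr12 rose by 1.30, but did not pass with the mean of its probe sets (0.36, adjusted p = 0.161). That mean includes a probe set below the filter level on every array, with a difference of -0.60. A further probe set above the filter differed by 0.40 and did not pass (adjusted p = 0.222).

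Nop2, a methyltransferase of 28S ribosomal RNA known as a proliferation antigen, had 5.07, 5.63 and 4.07 on memory-derived unstimulated and 6.28, 6.34 and 6.55 on stimulated arrays. Naive-derived arrays had 6.51 and 6.33 without and 6.36, 6.44 and 6.76 with stimulation. Every array outside the first group was above it, and Nop2 rose by 1.47 (SE 0.308, adjusted p = 0.00473). Gnl3, the GTPase nucleostemin, had 7.06, 7.36 and 5.45 without and 7.76, 7.79 and 7.76 with stimulation in memory-derived cells and 7.67 and 7.93 without and 7.90, 7.86 and 8.04 with it in naive-derived cells. Array 3 was the outlying one. The rise of 1.14 (SE 0.378, adjusted p = 0.0401) was 0.55 without it. Nop16, a nucleolar protein of early 60S particles, had 6.64, 6.96 and 4.97 without and 7.90, 7.88 and 7.74 with stimulation in memory-derived cells and 7.55 and 7.70 without and 7.57, 7.69 and 7.62 with it in naive-derived cells. Its memory-derived stimulated arrays were higher than all naive-derived ones. It rose by 1.65 (SE 0.391, adjusted p = 0.00870), and by 1.04 without array 3. Nle1, a WD-repeat protein of 60S maturation, had 4.29, 4.70 and 2.98 without and 5.61, 5.66 and 5.50 with stimulation in memory-derived cells and 5.18 and 5.46 without and 5.43, 5.48 and 5.74 with it in naive-derived cells. Array 3 was again the lowest, and the gene rose by 1.60 (SE 0.341, adjusted p = 0.00507).

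Several probe sets measured 37 of the members, which gives a second view of the same RNA on the same arrays. Of 56 further probe sets above the filter, 36 were higher after stimulation in memory-derived cells, 0 were lower and 20 did not pass. Bop1 was the 1 gene whose probe sets differed in sign in this comparison. With the mean of each gene's probe sets 44 members rose, and Bop1, Bysl, Mphosph10, Noc2l, Tbl3, Wdr12 and Wdr75 did not pass. These means also include 5 probe sets below the filter, of Polr1a, Tbl3 and Wdr12. The difference changed by over 1.5 times for 10 called members: Bop1, Gnl2, Mphosph10, Noc2l, Pes1, Polr1a, Taf1d, Tbl3, Wdr12 and Wdr75. In 8 members the probe set that stood for the gene was of a design (suffix _s or _x) that can also bind other transcripts, among them Polr1c, Polr1d, Taf1d, Fbl and Nop56.

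The second comparison asked how the same stimulation changed these genes in naive-derived cells. Of the 53 members, 0 rose and 0 fell by limma's adjusted p, where 0% of all genes tested rose and 0.0135% fell. At an unadjusted p below 0.05, 2 members were higher and 0 lower, against 4.04% and 4.42% of all genes tested. Polr1c differed by 0.45 (SE 0.167, adjusted p = 0.520) and Nop10 by 0.44 (SE 0.166, adjusted p = 0.520). The median difference was 0.11, against 0.0072 for all genes tested, and 46 members were above 0. The 95% interval of the difference lay within 1 log2 unit, a 2-fold change, on both sides of 0 for 46 members, and its highest upper bound was 1.09 for Rrp9. The SE, test and interval use 1 spread per gene over all 4 groups, which includes the memory-derived unstimulated arrays. There the members had a median SD of 0.522, against 0.0757 and 0.141 on naive-derived arrays without and with stimulation. All stimulated arrays lay above both unstimulated arrays in 19 members, an order that 13.6% of all genes tested showed, and below both in 0, against 12.8% of all genes. Within experiments 1 and 2 the median difference was 0.081 and 0.058. Of the 56 further probe sets, 21 had the opposite sign to the one that stood for the gene, in Ddx21, Dkc1, Heatr1, Ncl, Noc3l, Nol6, Nolc1, Npm1, Pes1, Polr1a, Rrp1b, Rrs1, Taf1d and Wdr43, and 0 of the 56 passed.

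**Figure D3:**
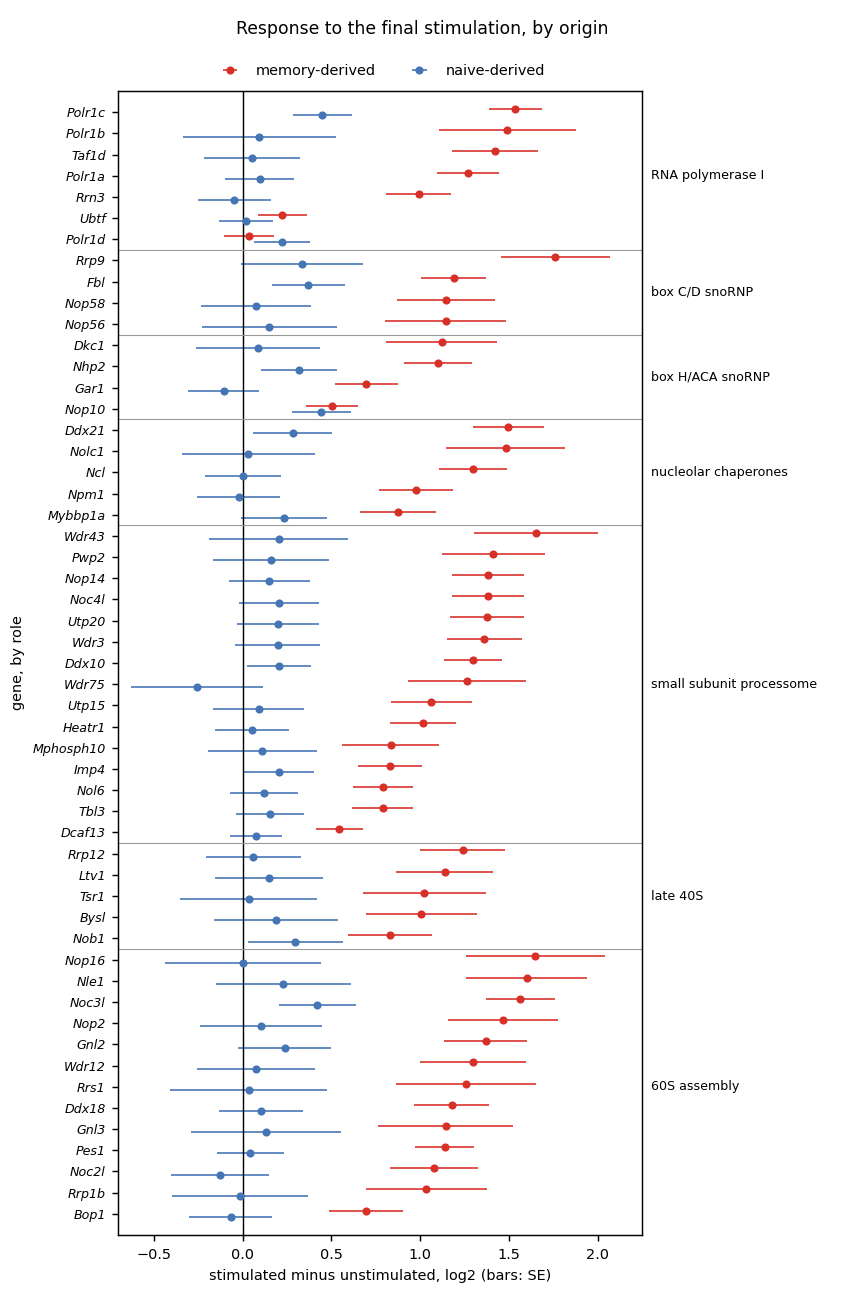
Fitted difference between stimulated and unstimulated arrays (log2, bars give the SE) for the 53 genes by role, memory-derived cells in red and naive-derived cells in blue. Red points lie between 0.04 and 1.76 and blue points between -0.26 and 0.45.

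A further comparison asked whether the origin of the cells mattered before the final stimulation. Without it, 43 of 53 members were higher in naive-derived than in memory-derived cells and 0 were lower, where 10.9% of all genes tested were higher and 14.9% lower. At an unadjusted p below 0.05, 50 were higher and 0 lower, against 16.5% and 21% of all genes tested. The median difference was 1.16, against -0.009 for all genes tested. This comparison shares the 3 memory-derived unstimulated arrays with the first, so the values of both are given side by side and are not separate evidence. The 6 largest were Nolc1 at 1.61 (and 1.48 after stimulation of memory-derived cells), Wdr43 at 1.61 (1.65), Rrp9 at 1.57 (1.76), Polr1b at 1.51 (1.49), Nop2 at 1.50 (1.47) and Utp20 at 1.46 (1.38). Their SEs were 0.375, 0.392, 0.344, 0.431, 0.345 and 0.233. With experiment as a block 35 members passed, and Bop1, Dcaf13, Dkc1, Nle1, Nop16, Nop56, Wdr75 and Polr1b (adjusted p = 0.0528) did not. In that fit 1296 of the 14795 genes tested were higher, against 1611 in the main fit. The groups did not overlap in 52 members, where 24.4% of all genes tested were ordered in this way, and the exception was Polr1d.

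By role, the members higher in naive-derived unstimulated cells were 5 of 7 in the RNA polymerase I machinery, 4 of 4 box C/D proteins, 3 of 4 box H/ACA proteins, 5 of 5 chaperones, 14 of 15 processome members, 1 of 5 late 40S factors and 11 of 13 in 60S assembly. The late 40S factor that passed was Rrp12, at 1.26 (SE 0.267, adjusted p = 0.00635). The others, Bysl, Nob1, Ltv1 and Tsr1, differed by 0.92, 0.69, 0.85 and 1.15 with adjusted p of 0.0780, 0.0818, 0.0627 and 0.0503. The remaining members that did not pass were Gnl3, Rrs1, Mphosph10, Nop10, Polr1d and Ubtf. Polr1d was the 1 gene whose probe sets differed in sign here, with -0.16 for the one that stood for it and 0.27 for another. Without memory-derived unstimulated array 3 the median difference was 0.82 and the count again 43, but Dcaf13, Gar1 and Wdr75 no longer passed and Gnl3, Rrs1 and Tsr1 did. Of the 43 called members it changed by over 1.5 times for 10: Bop1, Dkc1, Nle1, Nop16, Nop56, Polr1b, Pwp2, Rrp1b, Wdr12 and Wdr75. Of the members not called it moved as far for Bysl, Nob1, Ltv1 and Tsr1, to 0.45, 0.38, 0.45 and 0.62, and for Gnl3, Rrs1, Mphosph10 and Polr1d. Among the 6 largest, Polr1b was then at 0.92, Nolc1 at 1.16 and Wdr43 at 1.09. In a fit of these 2 groups alone 25 members passed, where 899 of the 14795 genes tested were higher, against 1611 in the main fit. Without naive-derived unstimulated array 1 or 2, which leaves 1 array in that group, fewer members passed. The differences of the 43 called members then ran from 0.46 to 1.61 and from 0.50 to 1.65.

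With stimulation, no member passed the test between origins. The counts by limma's adjusted p were 0 higher and 0 lower in naive-derived cells, where 1.69% of all genes tested were higher and 2.01% lower. At an unadjusted p below 0.05 there were 1 and 0, against 7.02% and 9.33% of all genes tested. The 1 was Nop10 at 0.39 (SE 0.148, adjusted p = 0.207). The median difference was 0.11, and the 95% interval lay within 1 log2 unit of 0 for 51 members. All naive-derived stimulated arrays lay above all memory-derived stimulated ones in 14 members, against 11.4% of all genes tested. They lay below in Nop16, Wdr75 and Mphosph10, against 14.3% of all genes.

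Naive-derived cells without the final stimulation and memory-derived cells with it share neither origin nor treatment, and their members were at similar values. Of the 53, 0 were higher and 0 lower in naive-derived unstimulated cells by limma's adjusted p, where 0.98% of all genes tested were higher and 0.865% lower. At an unadjusted p below 0.05, 0 were higher and 1 lower, against 5.41% and 6.7% of all genes tested. The 1 was Polr1c at -0.49 (SE 0.167, adjusted p = 0.238). The median difference was -0.04, and 24 members were above 0 and 29 below. The 95% interval lay within 1 log2 unit of 0 for 49 members.

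The interaction tested the difference between both responses, naive-derived minus memory-derived. By limma's adjusted p, 5 members had a smaller response in naive-derived cells and 0 a larger one, where 1.09% of all genes tested were lower and 1.62% higher. At an unadjusted p below 0.05 these counts were 41 and 0, where 10.6% of all genes tested were lower and 12.7% higher. The median was -1.07, and -0.79 without memory-derived unstimulated array 3. The 5 were Ncl at -1.29 (SE 0.287, adjusted p = 0.0438), Polr1a at -1.17 (SE 0.263, adjusted p = 0.0440), Pes1 at -1.09 (SE 0.253, adjusted p = 0.0479), Ddx10 at -1.09 (SE 0.243, adjusted p = 0.0438) and Polr1c at -1.08 (SE 0.224, adjusted p = 0.0389). The responses behind them were 1.30 and 0.001 for Ncl, 1.27 and 0.10 for Polr1a, 1.14 and 0.04 for Pes1, 1.30 and 0.21 for Ddx10 and 1.53 and 0.45 for Polr1c, memory-derived first. These calls lay near the threshold, and with experiment as a block 0 of the 53 passed, where 0.176% of all genes tested did in either direction. Leaving out memory-derived unstimulated array 1, 2 or 3 gave 1, 33 and 8 members. Of all genes tested, 1.26%, 10.2% and 3.26% were then called in either direction, against 2.71% in the main fit. Leaving out naive-derived stimulated array 3 gave 1 member (1.42% of all genes). Leaving out any memory-derived stimulated array or any other naive-derived stimulated array gave 0. Few genes at all were called in those fits. The shares were 0.507%, 0.128% and 0.237% without memory-derived stimulated array 1, 2 or 3. Without naive-derived stimulated array 1 or 2 they were 0.358% and 0.243%. Nop16 had the largest difference in response (-1.65) but also a large SE (0.587, adjusted p = 0.130). Without memory-derived unstimulated array 3 it was -1.03 and passed (adjusted p = 0.0271), as did Noc3l, Noc4l and Rrn3, while Ncl did not (adjusted p = 0.0502). With the mean of each gene's probe sets, Polr1a was at -0.70 and Ncl and Pes1 did not pass. The Polr1a mean includes probe sets below the filter level.

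Other genes of the same pathways, from lists chosen by function, were counted in memory-derived cells after stimulation, where 14.3% of all genes tested rose and 17.3% fell. Of 33 other 40S factors tested, 26 rose and 0 fell, with a median difference of 0.70. The largest were Dimt1, the dimethyltransferase of 18S ribosomal RNA, at 1.62 (SE 0.272) and Nol10 at 1.48 (SE 0.215). Of 41 other 60S factors, 33 rose and 0 fell with a median of 0.93, led by Ppan at 2.04 (SE 0.417) and Rrp15 at 1.75 (SE 0.396). Among 5 further genes of RNA polymerase I and SL1, 3 rose, with the subunit Polr1e at 1.16 and the SL1 subunit Taf1a at 1.14 the largest, and the median was 0.73. In 14 genes of the RNA exosome, the 3' to 5' trimming complex, 8 rose and 0 fell with a median of 0.42, led by the nuclease Dis3 at 1.22 and Mphosph6 at 1.05. In 10 assembly factors of small nucleolar particles, 6 rose and 1 fell with a median of 0.92. Naf1, an assembly factor of H/ACA particles, rose by 1.58 and Znhit6 by 1.25, whereas Pih1d1 fell by 0.56.

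RNA polymerase subunits outside RNA polymerase I did not all move the same way. The share of all genes tested was again 14.3% higher and 17.3% lower. In lists this small, the counts for RNA polymerase II and ribosomal DNA chromatin were not far from these shares. Of 8 subunits of RNA polymerase II, which makes messenger RNA, 0 rose and 2 fell (1 higher and 3 lower at an unadjusted p below 0.05), Polr2g by 0.45 and Polr2i by 0.42, and the median was -0.19. Of 10 subunits of RNA polymerase III, which makes 5S ribosomal RNA and transfer RNA, 6 rose and 3 fell with a median of 0.76. Polr3d and Polr3e rose by 1.35 and 1.33 and Polr3gl and Polr3k fell by 1.08 and 0.72. Polr3g, a paralog that takes the place of Polr3gl in the enzyme, rose by 1.21 (SE 0.230) and was singled out after its values were seen. Of 3 subunits shared by all polymerases, Polr2h and Polr2f rose by 0.63 and 0.55 and Polr2e fell by 0.44. Of 8 genes of ribosomal DNA chromatin, 2 rose and 1 fell with a median of -0.18. Rrp8 of the nucleolar silencing complex rose by 0.77, the remodeller Smarca5 by 0.36, and the deacetylase Sirt7, which is known to associate with RNA polymerase I, fell by 1.04 (SE 0.159).

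**Figure D4:**
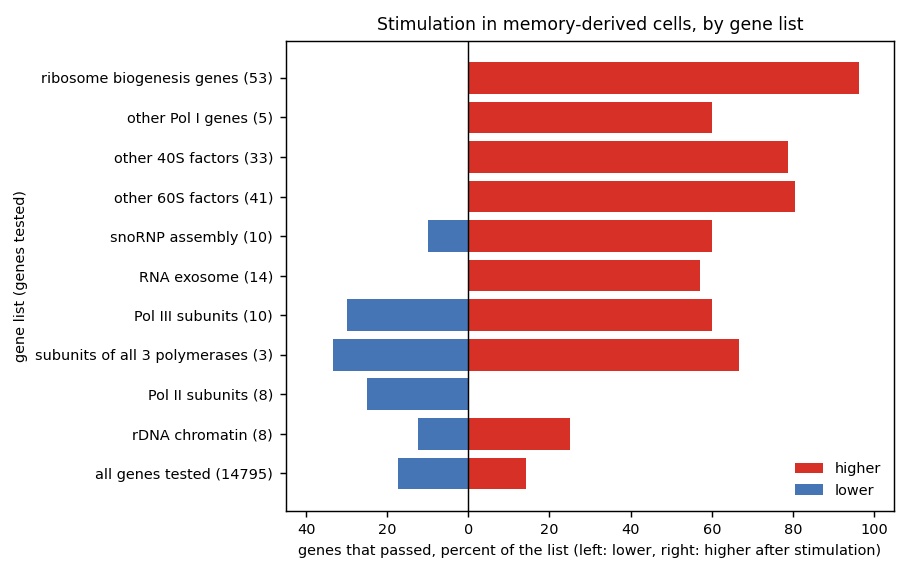
Share of each gene list that passed the test after stimulation in memory-derived cells (percent of genes tested, higher to the right in red, lower to the left in blue; the number tested in brackets). The ribosome biogenesis genes and the other 40S and 60S factors lie almost wholly to the right. The 2 of 8 RNA polymerase II subunits that passed lie to the left, and all genes tested lie on both sides at 14.3% and 17.3%.

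The same lists were counted between origins without stimulation, a comparison that shares its low group with the one above. Of all genes tested, 10.9% were higher in naive-derived cells and 14.9% lower, and the counts of several small lists were not far from these shares. Higher in naive-derived cells were 22 of 33 other 40S factors, 27 of 41 other 60S factors, 3 of 5 RNA polymerase I genes, 5 of 10 particle assembly factors, 5 of 14 exosome genes, 6 of 10 RNA polymerase III subunits, 2 of 8 genes of ribosomal DNA chromatin, 0 of 8 RNA polymerase II subunits and 0 of 3 shared subunits. Lower were 0, 0, 0, 0, 1, 2, 1, 1 and 1 in the same order. After stimulation in naive-derived cells 0 genes of any of these lists passed in either direction. Only 2 of all 14795 genes tested passed there, so this count is not particular to the lists. Polr3g was higher in naive-derived unstimulated cells by 0.80 (SE 0.257) and Polr3gl lower by 1.11 on the log2 scale, and Sirt7 was lower by 1.10.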

How the data were processed

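Total RNA of 11 cultures was measured on Affymetrix 3' expression arrays. The authors' deposited values are on a log10 scale, per array and probe set. This base is inferred: the hybridization controls bioB, bioC, bioD and cre had mean log10 values of 1.38, 1.87, 2.58 and 3.65, in rising order of their concentration. Per the submitters' processing notes, Affymetrix Expression Console was used, and the summarization method is not given in the sources used here. Sorted values were identical on every array (range 0 to 4.56, median 0.554), as after quantile normalisation. Precision is limited by the number of arrays.

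Multiplication by 3.32 gave log2 values. Of 45101 probe sets, 64 were controls, 34945 had 1 gene symbol, 932 had several and 9160 are not listed in the annotation used here. The filter kept a gene if its probe set exceeded the 40th percentile of an array, a log2 value of 1.54, on 2 or more arrays. A linear model of the 4 group means was fitted to all 11 arrays and 14795 genes by lmFit and eBayes of limma 3.58.1 (R 4.3.3), with 3.86 prior and 7 residual degrees of freedom. Each gene had 1 spread estimate, shared by the 4 groups and used in every comparison. Two-sided p-values were adjusted within each of 6 comparisons (Benjamini-Hochberg), and a gene passed below 0.05. Figures were drawn with matplotlib 3.10.9 in Python 3.11.15, and the fit was tested on simulated data.

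The members, gene lists and motifs were chosen with earlier results of these data known. Values by array are given for members chosen as anchors of each role and for the 4 largest and 3 smallest differences after stimulation in memory-derived cells. In other comparisons all members that passed are named where at most 6 did, otherwise the 6 largest. Members with probe sets of differing sign or with none, and of other lists the 2 largest changes in each direction after stimulation in memory-derived cells, are also named.

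The sample descriptions name experiments 1 to 3, with the same number as the replicate in the title, so the number pairs arrays. Deviations from group means correlated at -0.0716 to 0.112 within experiments (15 pairs) and -0.131 to 0.112 between them (30 pairs). For the 5 pairs of the same experiment and origin they were 0.0470 to 0.112. Nothing in the labels tells whether each experiment used separate mice. Alternatives were no filter, centring on control probe sets, the mean of a gene's probe sets, a trended robust prior, each comparison's groups alone, experiment as a block, a random block by origin and experiment, experiments 1 and 2 alone, and leaving out each array.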

Additional observations from a re-analysis of the deposited data

Results flagged for a closer look

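The response to stimulation differed between origins by the interaction test for 5 ribosome biogenesis genes. The difference in response, naive-derived minus memory-derived, was -1.29 on the log2 scale for Ncl, -1.17 for Polr1a, -1.09 for Pes1, -1.09 for Ddx10 and -1.08 for Polr1c. In all 5 the response was near 0 or small in naive-derived cells and over 1 log2 unit in memory-derived cells. None of the 5 passed with experiment as a block or with arrays centred on control probe sets. In those fits 0.176% and 1.05% of all genes tested were called in either direction, against 2.71% in the main fit.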

How the results depend on the processing

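The count of members that rose after stimulation in memory-derived cells kept its size (39 to 51) under all alternatives, and 0 of the called members changed sign there. The median was 0.85 to 1.42 over the fits that left out an array. Polr1d, which was not called, had a difference of -0.0537 to 0.1273 when an array was left out, and was below 0 without memory-derived unstimulated array 3 and without memory-derived stimulated array 1. Between origins without stimulation, 25 members passed with the 2 groups alone and 18 to 50 when an array was left out. The median there was 0.821 in experiments 1 and 2 alone and 0.821 to 1.43 when an array was left out. The count of members with a smaller response in naive-derived cells was 0 without the filter, with control scaling and with the replicate block. It was also 0 in experiments 1 and 2 alone, 19 with the trended robust prior and 13 with the random block. When an array of a group of 3 was left out, it was 0 to 33. The cause was not tested, beyond the smaller number of arrays in the last. Of all genes tested, 2.71% were called in either direction in the main fit of this comparison. With the trended robust prior this share was 7.57%, with the random block 6.02% and without memory-derived unstimulated array 2 it was 10.2%. Where 0 members were called it was also low. It was 0.956% without the filter, 1.05% with control scaling, 0.176% with the replicate block and 0.331% in experiments 1 and 2 alone. The replicate block left 51 members higher after stimulation in memory-derived cells and 35 between origins without stimulation, and control scaling 46 and 37. Of all genes tested, 2051 and 1296 were higher with the block and 1362 and 872 with control scaling, against 2119 and 1611 in the main fit. Over all counts and medians, 317 recomputed values stayed close to the one reported and 22 moved, and for single members 574 kept their call, 122 lost it and 2 changed sign. Close meant within 1.5 times for a count and within 0.312 log2 units, the SD between arrays, for a median. The 317 include counts that were 0 in the main fit and stayed 0, many of which could hardly change. The tally is therefore no measure of stability. Signal over background was not available, and low values are compressed.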
